A study of Mus musculus with 48 samples.

Results

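The 9 genes described here are Trp53, which encodes the transcription factor p53, and a set of genes that p53 is known to activate: Cdkn1a, Mdm2, Ccng1, Bax, Phlda3, Eda2r, Trp53inp1 and Btg2. They were picked by name, found by their Ensembl identifiers among the 55416 genes counted in each liver, and all 9 passed the filter on low counts, which left 15711 genes to test. The livers came from 48 mice, labelled C57Bl/6J, that had eaten a western diet for 8 weeks, from 8 weeks of age. The study describes the knockout line as backcrossed to C57Bl/6 from a mixed background, without naming a substrain. DN:WT, DN:HET and DN:HOM mice carried 0, 1 or 2 copies of a dominant-negative LXRα knock-in allele, W441R, made by genome editing and derived from 1 founder. KO:WT, KO:HET and KO:HOM mice carried 0, 1 or 2 LXRα knockout alleles. Each of the 6 groups held 8 livers. The mutations were carried in every cell of the body, the 2 lines were bred at different sites, and the study describes the knock-in mice as males and the knockout experiment as a repeat of theirs, so line and site cannot be told apart in any comparison between the studies.

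p53 is held at a low level by Mdm2, the ubiquitin ligase that marks it for degradation and is itself switched on by p53. When DNA is damaged or growth signals are abnormal, p53 escapes this loop and activates genes that stop the cell cycle, repair DNA or start cell death. Much of its control is exerted on the protein, so the messenger RNA of Trp53 need not follow its activity, and several of its targets, Cdkn1a and Btg2 among them, also answer to other signals.

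p53 binds a 20-base element made of a 10-base unit that stands there 2 times. The element is its own reverse complement, so a search of one strand covers both. Sites with no spacer, at most 2 mismatches and an intact central C and G in each unit were sought within 5000 bases of the start site of the canonical transcript. They were found for 4 of the 9 members, in GRCm39 (Ensembl annotation). They are shown because they are the sequence feature through which the family is defined. The members were picked as known p53 targets, so that choice gets no independent support from these sites. Each is printed 5′ to 3′ on the strand of its gene, with capitals for the bases that match the consensus and lower case for those that do not.

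Cdkn1a, chr17:29309902-29309921: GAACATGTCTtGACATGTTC
Ccng1, upstream, chr11:40646289-40646308: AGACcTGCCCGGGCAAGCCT
Ccng1, intronic, chr11:40645763-40645782: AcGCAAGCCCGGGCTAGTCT
Bax, chr7:45115998-45116017: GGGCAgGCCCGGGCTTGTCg
Eda2r, chrX:96420140-96420159: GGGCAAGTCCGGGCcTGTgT

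The Cdkn1a site is centred at -2827 from the canonical start site, upstream of that transcript, and has 1 mismatch. The Ccng1 sites are centred at -161, upstream, and at 365, in an intron, with 1 mismatch each. The Bax and Eda2r sites are intronic, at 317 and 689 from their start sites, and have 2 mismatches each. No such site lay in the window of Trp53, Mdm2, Phlda3, Trp53inp1 or Btg2, which says only that these letters are not in this window. Of all 21770 protein-coding genes searched the same way, 2147 (9.86%) had at least 1 site. A window of 2500 bases, which was tried first and widened after its result was seen, held a site for 3 members and 4.86% of all genes. In DN:HOM livers, described below, Bax and Eda2r were higher, Ccng1 was lower (not with library size alone as the scaling) and Cdkn1a did not pass the test, while Phlda3, with the widest difference among the members, has no such site in its window.

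Reads on genes numbered between 5332897 and 16961379 per liver (median 15879972), and 2 livers had fewer than 10000000. Levels are given as CPM, the reads of a gene relative to the size of its library, after scaling by trimmed mean of M values (TMM), which equalises the bulk of genes between livers. Nr1h3, the gene of LXRα, was at 81.4 to 108 CPM in KO:WT, 48.3 to 65.4 in KO:HET and 25.2 to 31.1 in KO:HOM livers, without overlap. In the knock-in study it was at 82.0 to 96.8 CPM in DN:WT, 86.3 to 99.8 in DN:HET and 68.4 to 77.3 in DN:HOM livers. These ranges leave out DN:WT animal 10 and DN:HOM animal 12, which went against their labels: DN:WT animal 10 had 71.2 CPM of Nr1h3, within the DN:HOM range, and DN:HOM animal 12 had 86.8, within the DN:WT range. Cell type markers, described further on, also went against the labels: summed stellate cell markers were at 1110 CPM in DN:WT animal 10 and 254 in DN:HOM animal 12, and cholangiocyte markers at 1160 and 43.4 CPM, where DN:WT had 30.3 to 70.7 and DN:HOM 722 to 1070. Whether the 2 livers were exchanged was not tested, and values over 48 livers take their labels as given. Both livers are also absent from the source data that the study gave for bile-acid genes. Values below are for the other 46 livers unless all 48 are named.

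In DN:HOM livers, 6 of the 9 members differed from DN:WT at an adjusted p under 0.05 in edgeR's quasi-likelihood test. Phlda3, Btg2, Eda2r, Bax and Trp53 were higher and Ccng1 was lower, the last not over 48 livers, with upper-quartile scaling or with library size alone as the scaling. Over all genes tested, 29.1% were higher and 30% lower in the same comparison, and the 5 higher and 1 lower of the 9 members are to be read against that background. Cdkn1a, Mdm2 and Trp53inp1 did not pass the test. The median log2 fold change of the members was 0.80, against -0.01 over all genes. Over all 48 livers 4 members passed, all higher (Phlda3, Bax, Btg2 and Trp53), where 23% of all genes were higher and 25% lower, and 6 had an unadjusted p under 0.05.

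In KO:HOM livers, only Phlda3 passed against KO:WT, higher, where 11.5% of all genes were higher and 7.87% lower. The median log2 fold change of the members was 0.17, against -0.02 over all genes. Over all 48 livers no member passed by edgeR in this comparison, 2 had an unadjusted p under 0.05, and 8.79% of all genes were higher and 4.12% lower. DESeq2 over the 46 livers called 1 member.

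**Figure D1:**
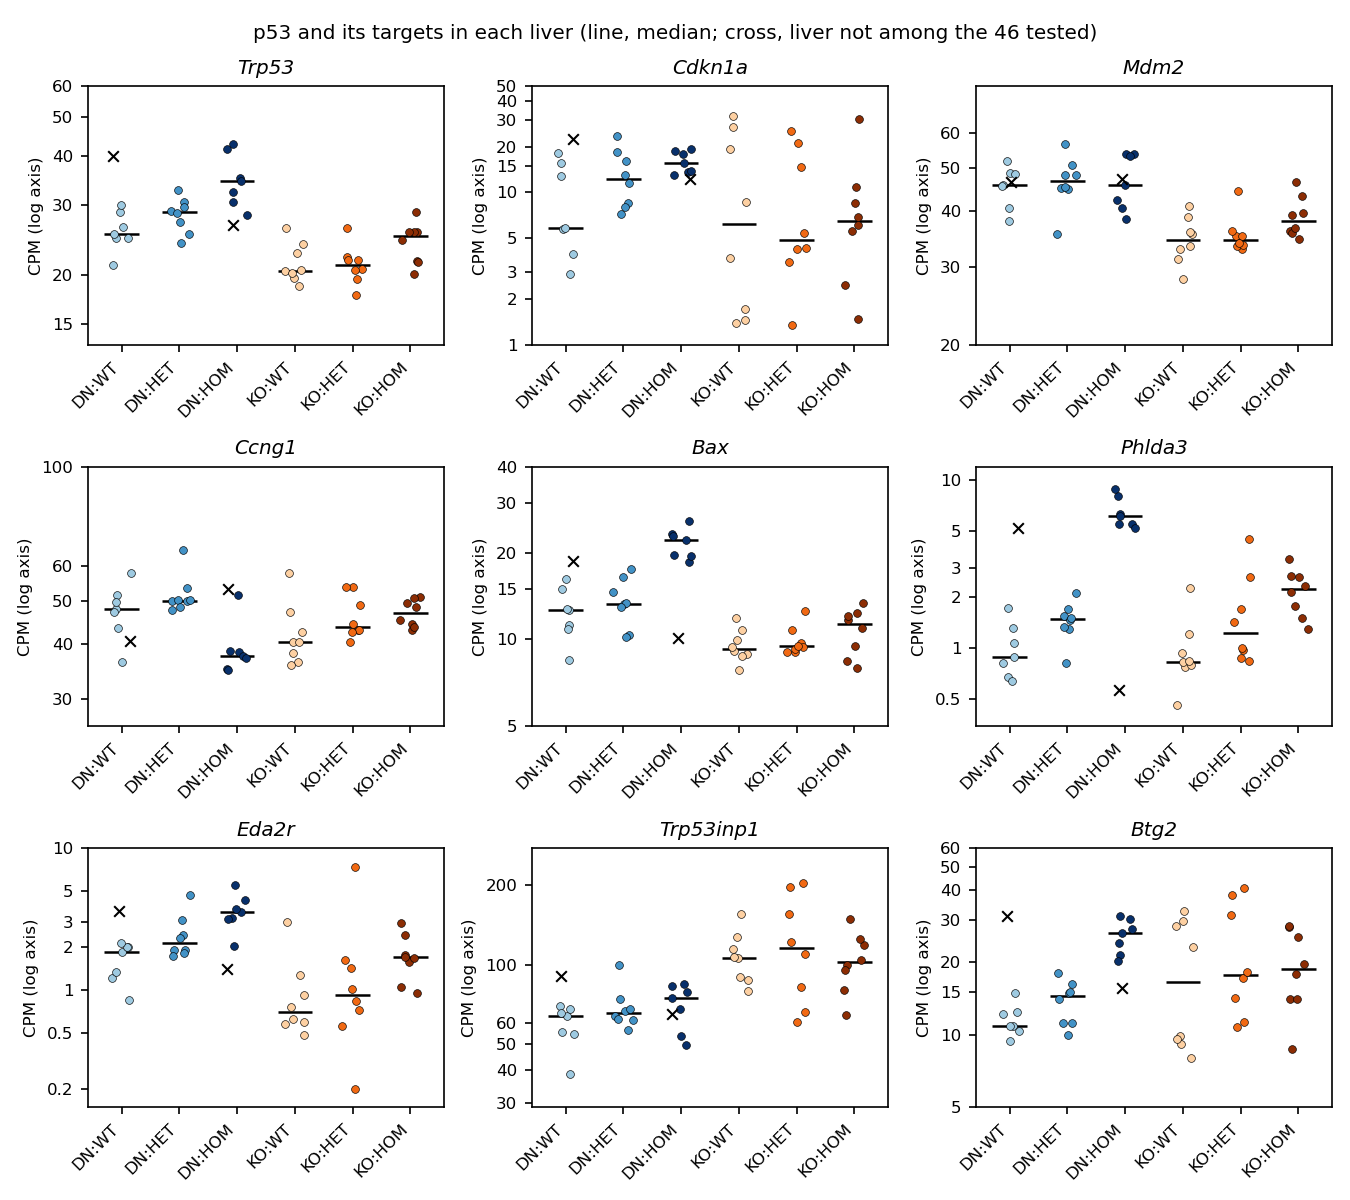
Level of each member in every liver, in CPM on a log axis, by genotype group (8 livers each). Points are the 46 livers tested, black lines are their medians, and crosses are DN:WT animal 10 and DN:HOM animal 12. Phlda3, Bax and Btg2 in DN:HOM livers lie above all points of DN:WT livers, while Cdkn1a spreads 18.7-fold to 23.2-fold within each knockout genotype.

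Trp53 encodes the factor itself and lies at chr11:69469669-69482701 (GRCm39, plus strand). Its level ran from 21.2 to 30.1 CPM in DN:WT (median 25.3), from 24.1 to 32.8 in DN:HET (28.8) and from 28.4 to 42.9 in DN:HOM livers (34.6). The DN:HOM range overlapped that of DN:WT in its lowest part. The level fitted by the model was 1.37-fold higher in DN:HOM than in DN:WT (log2 difference 0.45 ± 0.09 SE, adjusted p = 3.9e-05 by edgeR). Over 48 livers the log2 difference was 0.30 (edgeR adjusted p = 0.0123). The medians of the knockout study were 20.5, 21.2 and 25.1 CPM from KO:WT to KO:HOM, with ranges that overlapped throughout, and KO:HOM did not pass (log2 difference 0.17 ± 0.09, edgeR adjusted p = 0.177).

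Mdm2 (chr10:117524780-117546730, minus strand) encodes the ligase that degrades p53. It was among the steadiest members, between 37.9 and 51.8 CPM in DN:WT, 35.5 and 56.7 in DN:HET and 38.5 and 53.8 in DN:HOM livers. These 3 ranges overlapped almost fully. The log2 difference of DN:HOM from DN:WT was 0.05 ± 0.09 (edgeR adjusted p = 0.625), and that of KO:HOM from KO:WT was 0.17 ± 0.09 (adjusted p = 0.177). KO:WT livers ran from 28.1 to 41.0 CPM and KO:HOM livers from 34.6 to 46.6, which overlapped.

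Ccng1 (chr11:40639377-40646148, minus strand) encodes cyclin G1, which recruits a phosphatase to Mdm2 and so takes part in the same loop. It ran from 36.5 to 57.8 CPM in DN:WT (median 47.9), from 47.7 to 64.9 in DN:HET (50.03) and from 34.9 to 51.6 in DN:HOM livers (37.5). In DN:HOM, 6 of 7 livers were at 38.6 CPM or less and animal 33 was at 51.6. Ccng1 was the only member that was lower in DN:HOM than in DN:WT, by 0.28 ± 0.09 on the log2 scale (edgeR adjusted p = 0.00957), a fall that was -0.20 over 48 livers (adjusted p = 0.0726), was -0.19 with upper-quartile scaling (adjusted p = 0.0724) and turned to 0.15 with library size alone as the scaling (adjusted p = 0.127). Between KO:WT livers, at 35.9 to 57.6 CPM, and KO:HOM livers, at 43.0 to 50.9, it did not pass (log2 difference 0.14 ± 0.09, edgeR adjusted p = 0.272).

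Scaling matters for such small differences. TMM and library size alone differed most in DN:HOM livers: under library size alone the median log2 difference of all genes from DN:WT was 0.42, with 9283 genes higher and 1738 lower, against 4579 and 4713 with TMM. A gene that keeps step with the bulk of genes is unchanged by TMM and raised by library size alone. Under library size alone Mdm2 and Trp53inp1 also passed in DN:HOM, higher, and 7 members did so in all.

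Cdkn1a (chr17:29309936-29319701, plus strand) encodes p21, the inhibitor of cyclin-dependent kinases that carries out the arrest in G1. It ran from 2.93 to 18.1 CPM in DN:WT (median 5.87), from 7.17 to 23.3 in DN:HET (12.3) and from 12.9 to 19.2 in DN:HOM livers (15.7). All 7 DN:HOM livers were above 12 CPM, as were 3 of the 7 DN:WT livers. It ran from 1.38 to 31.96 CPM in KO:WT, 1.346 to 25.2 in KO:HET and 1.48 to 30.4 in KO:HOM, a spread of 23.2-fold, 18.7-fold and 20.5-fold within 1 genotype. With that spread the log2 difference of DN:HOM from DN:WT, 0.80 ± 0.58, did not pass (edgeR adjusted p = 0.237), nor did that of KO:HOM from KO:WT, -0.37 ± 0.55 (adjusted p = 0.690). Fitted without the knockout livers, the knock-in difference was 0.84 with an edgeR adjusted p of 0.0282, and over 48 livers it was 0.50 (adjusted p = 0.463).

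Btg2 (chr1:134002908-134015033, minus strand) encodes an antiproliferative protein that acts with the deadenylase complex and is also an early response gene. It ran from 9.40 to 14.9 CPM in DN:WT (median 10.9), from 9.92 to 18.1 in DN:HET (14.5) and from 20.3 to 31.4 in DN:HOM livers (26.6). Among the 46 livers, every DN:HOM liver was above every DN:HET and DN:WT liver. Outside the 46, DN:WT animal 10 was at 31.13 CPM and DN:HOM animal 12 at 15.65. How many of all genes separated in the same way was not counted. The level of Btg2 was 2.27-fold higher in DN:HOM than in DN:WT (log2 difference 1.18 ± 0.29, edgeR adjusted p = 5.7e-04), and 1.76-fold over 48 livers (edgeR adjusted p = 0.0204). Knockout livers were spread more widely, from 7.97 to 32.7 CPM in KO:WT and 8.70 to 28.5 in KO:HOM, and the means did not differ beyond that spread (log2 difference 0.06 ± 0.27, edgeR adjusted p = 0.911).

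Bax (chr7:45111015-45116325, minus strand) encodes the pore-forming protein that opens the outer mitochondrial membrane in apoptosis. It ran from 8.51 to 16.2 CPM in DN:WT (median 12.7), from 10.2 to 17.6 in DN:HET (13.3) and from 18.7 to 25.98 in DN:HOM livers (22.2). The DN:HOM livers among the 46 again lay above all livers of the other knock-in groups. Outside the 46, DN:WT animal 10 was at 18.85 CPM and DN:HOM animal 12 at 10.13. Bax was 1.76-fold higher in DN:HOM than in DN:WT (log2 difference 0.82 ± 0.12, edgeR adjusted p = 2.77e-07), and 1.53-fold over 48 livers (adjusted p = 5.81e-04). KO:HOM livers, at 7.93 to 13.4 CPM, overlapped KO:WT livers, at 7.84 to 11.9 CPM (log2 difference 0.17 ± 0.12, edgeR adjusted p = 0.342). The annotation places 192 exonic bases of Bax under a neighbour on the same strand, Gm45808, so part of its reads may not have been assigned to it. Trp53, Cdkn1a and Ccng1 overlap genes only on the opposite strand, which the stranded counts separate.

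Phlda3 (chr1:135693809-135697686, plus strand) encodes a small protein with a pleckstrin homology domain that competes with Akt for membrane lipids and so restrains survival signalling. It ran from 0.64 to 1.73 CPM in DN:WT (median 0.89), from 0.81 to 2.12 in DN:HET (1.49) and from 5.18 to 8.85 in DN:HOM livers (6.09). The lowest DN:HOM liver was above the highest liver of both other knock-in groups. The difference from DN:WT was 6.36-fold (log2 2.67 ± 0.30, edgeR adjusted p = 3.31e-10), and 3.64-fold over 48 livers (edgeR adjusted p = 1.76e-04). The range was 0.46 to 2.28 CPM in KO:WT (median 0.83), 0.84 to 4.44 in KO:HET (1.22) and 1.30 to 3.36 in KO:HOM (2.24). KO:HOM was 2.19-fold higher than KO:WT (log2 1.13 ± 0.29, edgeR adjusted p = 0.00363), which just missed the threshold over 48 livers (adjusted p = 0.0508). DN:WT animal 10 had 5.21 CPM, within the DN:HOM range, and DN:HOM animal 12 had 0.56, below every DN:WT liver. The levels rest on few reads, 9 to 26 per liver in DN:WT and 110 to 180 in DN:HOM.

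Eda2r (chrX:96320270-96420847, minus strand) encodes the receptor of ectodysplasin A2, a member of the tumour necrosis factor receptor family. It ran from 0.85 to 2.16 CPM in DN:WT (median 1.85), from 1.75 to 4.64 in DN:HET (2.13) and from 2.03 to 5.52 in DN:HOM livers (3.55). Only the lowest DN:HOM liver fell within the DN:WT range. The difference was 2.24-fold (log2 1.16 ± 0.40, edgeR adjusted p = 0.0122), and did not pass over 48 livers (log2 0.83, edgeR adjusted p = 0.0779). KO:WT livers ran from 0.48 to 2.99 CPM and KO:HOM livers from 0.95 to 2.98, with a log2 difference of 0.80 ± 0.41 (edgeR adjusted p = 0.174). The highest KO:WT liver was animal 23, and without it that difference became 1.26 (edgeR adjusted p = 0.0222). In KO:HET a single liver with 1 read (0.20 CPM) and another at 7.41 CPM spanned 36.8-fold.

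Trp53inp1 (chr4:11156412-11175230, plus strand) encodes a nuclear protein that promotes p53 phosphorylation and autophagy. It ran from 38.8 to 70.0 CPM in DN:WT (median 63.8), from 56.9 to 99.6 in DN:HET (65.5) and from 49.97 to 84.2 in DN:HOM livers (74.8). These ranges overlapped, and the log2 difference of 0.25 ± 0.21 did not pass (edgeR adjusted p = 0.290). It ran from 79.8 to 155 CPM in KO:WT and from 64.6 to 149 in KO:HOM, with a log2 difference of -0.05 ± 0.19 (edgeR adjusted p = 0.886).

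**Figure D2:**
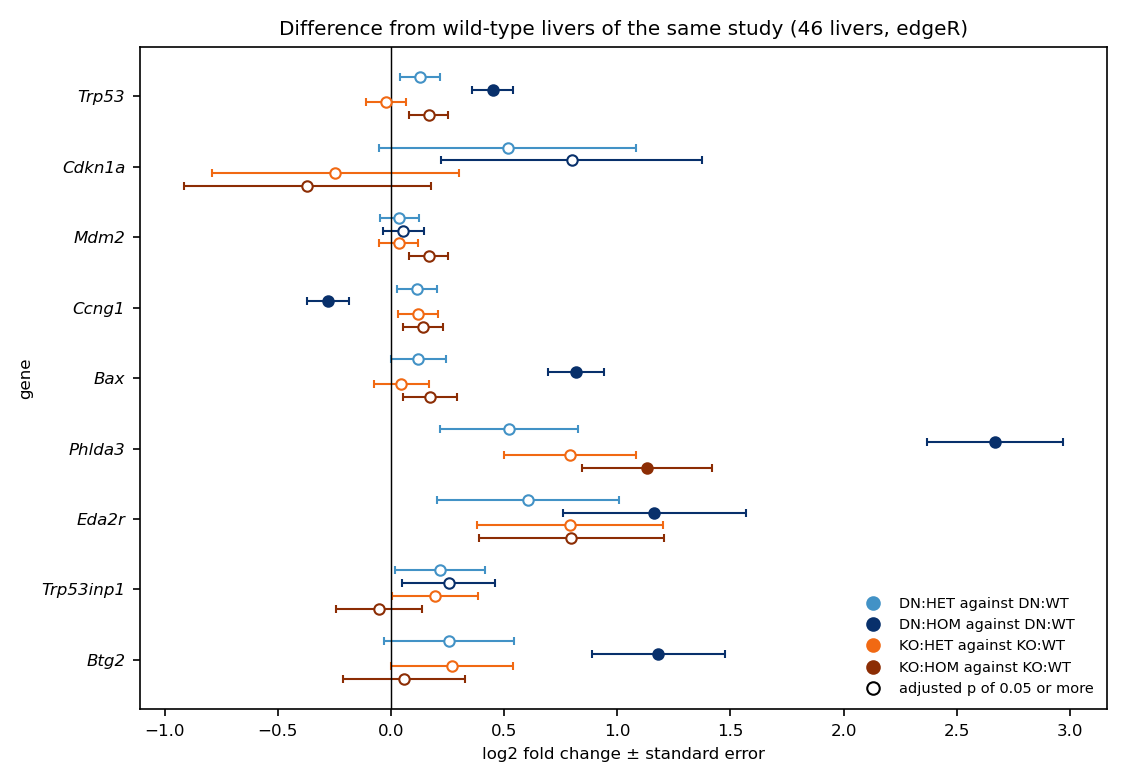
Difference of heterozygous and homozygous livers from wild-type livers of the same study for each member, as log2 fold change with its standard error, over 46 livers. Filled points passed an adjusted p of 0.05 in edgeR. Phlda3 in DN:HOM, at 2.67, stands farthest from 0, Ccng1 in DN:HOM is the only filled point below 0 (at 0.15 with library size alone), and Phlda3 at 1.13 is the only filled point of KO:HOM.

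With 1 mutant allele no member passed by edgeR or by DESeq2. In DN:HET against DN:WT, where 2.3% of all genes passed (361 of 15711, and 39 of 15621 over 48 livers), none of the 9 members had an unadjusted p under 0.05, and all 9 log2 differences were above 0, from 0.04 (Mdm2) to 0.61 (Eda2r). With DN:WT animal 10 and DN:HOM animal 12 added, that of Phlda3 turned to -0.10 and that of Btg2 to -0.03. In KO:HET against KO:WT, where 0.0191% of all genes passed, Phlda3 alone had an unadjusted p under 0.05, at a log2 difference of 0.79 ± 0.29 (edgeR adjusted p = 0.646).

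Between 1 and 2 mutant alleles, 5 of the 9 members differed in the knock-in study. Phlda3 was 4.43-fold, Btg2 1.90-fold, Bax 1.62-fold and Trp53 1.25-fold higher in DN:HOM than in DN:HET, and Ccng1 was lower at 0.76 of its DN:HET level. Their adjusted p-values by edgeR ran from 9.99e-09 (Phlda3) to 0.00445 (Btg2), and the same 5 passed over 48 livers. Here 26.1% of all genes were higher and 27.8% lower. The fall of Ccng1 was 0.02 with library size alone, and did not pass (adjusted p = 0.821). Eda2r did not pass over the 46 livers (edgeR adjusted p = 0.214). It passed when fitted without the knockout livers and with library size alone (edgeR adjusted p down to 0.032). In the knockout study no member passed between KO:HOM and KO:HET by edgeR or DESeq2, 1 had an unadjusted p under 0.05 (Trp53, by both tools), and 10.6% of all genes passed (1663 of 15711, and 737 of 15621 over 48 livers).

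Whether a homozygous effect differed between the lines was tested as a difference of differences. Over 46 livers it passed for 4 members. The effect was larger in the knock-in for Phlda3 (by 1.54 ± 0.41 on the log2 scale, edgeR adjusted p = 0.0031), Btg2 (by 1.12 ± 0.40, adjusted p = 0.0242) and Bax (by 0.64 ± 0.17, adjusted p = 0.00274), and lower for Ccng1 (-0.42 ± 0.13, adjusted p = 0.00878). Among all genes 16.5% had a higher and 18.3% a lower effect in the knock-in. Over 48 livers none of the 9 passed by edgeR, 2 had an unadjusted p under 0.05, and 10.5% of all genes passed. The value for Ccng1 was -0.11 with library size alone (adjusted p = 0.489). The call of Btg2 also ended when KO:WT animal 34 or KO:WT animal 5 was left out (adjusted p of at most 0.0539, log2 0.96 or more). That of Trp53, 0.28 ± 0.12 (adjusted p = 0.0749), passed when DN:HOM animal 33 or KO:HOM animal 27 was left out (adjusted p down to 0.0428), with upper-quartile scaling (0.34, adjusted p = 0.0389) and with library size alone (0.60, adjusted p = 0.000991).

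Per kilobase of exon, Ccng1 stood highest of the members in DN:WT livers at 10.85 CPM per kb, before Trp53inp1 (8.1), Bax (6.73), Mdm2 (5.91), Trp53 (3.52), Btg2 (1.85), Cdkn1a (1.54), Phlda3 (0.39) and Eda2r (0.22). In DN:HOM livers Bax led with 11.7 CPM per kb and Phlda3 had reached 2.5, close to Cdkn1a at 2.65. In KO:WT livers Trp53inp1 led at 14.7 CPM per kb, before Ccng1 at 9.62. Length was that of all annotated exons of a gene joined, whichever transcripts the liver made, so the order between genes is approximate. The difference in Trp53inp1 between the wild-type groups was not tested, since line and site differ with it.

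Within 1 genotype the members were not equally variable. The standard deviation of log2 CPM around the group means was 1.22 for Cdkn1a, wider than that of 99.5% of the 15711 genes, and 0.73 for Eda2r, wider than that of 91.5%. Btg2 (0.57) and Phlda3 (0.52) were wider than 79.3% and 74.9% of genes. Trp53, Mdm2 and Ccng1 were the steadiest, all at 0.17, with Trp53 wider than 24.9% and Mdm2 than 25.1% of genes.

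Single livers stood high for several members at once. KO:HET animal 9 had the highest level of its group for 5 of the 9 members, Trp53, Mdm2, Bax, Phlda3 and Eda2r. KO:HOM animal 11 was highest for 4, Cdkn1a, Phlda3, Eda2r and Trp53inp1, and DN:HET animal 22 for 4, Trp53, Mdm2, Bax and Trp53inp1. Among KO:WT livers Cdkn1a was at 19.3, 31.96 and 26.7 CPM in animals 23, 33 and 34, and between 1.38 and 8.67 CPM in the other 5. Btg2 was at 23.2, 28.3 and 29.8 CPM in the same 3 livers and at 32.7 in animal 5, and between 7.97 and 9.82 in the other 4.

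Covariation within genotypes was measured for all 36 pairs of members over the 46 livers, on log2 CPM with the group means subtracted and a permutation test within groups. For 11 pairs Spearman's rho had an adjusted p under 0.05, all of them above 0, and the median over the 36 pairs was 0.25. The same count and median were not taken for pairs of other genes. Whether such values are particular to the members was therefore not tested. The pair with the highest rho was Cdkn1a with Btg2 (Pearson's r = 0.80, rho = 0.79, permutation p = 1e-05 for both, adjusted p = 1.8e-04 for both, and r = 0.78 without the 2 livers farthest from the median of Cdkn1a). That p is the smallest that 100000 permutations can give. Phlda3 went with Eda2r (r = 0.77, rho = 0.69, permutation p = 1e-05 and adjusted p = 1.8e-04 for both, r = 0.63 without the 2 farthest livers). Phlda3 went with Btg2 (r = 0.62, rho = 0.62, permutation p = 4e-05 and adjusted p = 4.8e-04 for both, r = 0.58 without the 2 farthest livers). Cdkn1a went with Phlda3 (r = 0.61, permutation p = 1.1e-04, adjusted p = 9.9e-04, rho = 0.62, permutation p = 8e-05, adjusted p = 7.2e-04, r = 0.62 without the 2 farthest livers). Trp53 went with Bax (r = 0.54, permutation p = 1.8e-04, adjusted p = 0.0013, rho = 0.54, permutation p = 3.6e-04, adjusted p = 0.00259, r = 0.52 without the 2 farthest livers).

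Within each study the values were as follows. In the 24 knockout livers rho was 0.84 for Cdkn1a with Btg2, 0.81 for Cdkn1a with Phlda3, 0.77 for Phlda3 with Btg2 and 0.62 for Eda2r with Btg2. In the 22 knock-in livers the same pairs had rho of 0.34, 0.10, 0.19 and 0.14, where Cdkn1a spread 6.17-fold among DN:WT, 3.25-fold among DN:HET and 1.48-fold among DN:HOM livers, and 18.7-fold to 23.2-fold in the knockout groups. Phlda3 with Eda2r (0.56 and 0.72) and Trp53 with Bax (0.49 and 0.56) were positive in both studies. Ccng1 with Eda2r was the reverse case, at 0.78 in the knock-in and 0.05 in the knockout livers. These differences between the studies were not tested. The livers of a pair of genes share 1 library each, so depth and the make-up of the tissue are common to both.

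**Figure D3:**
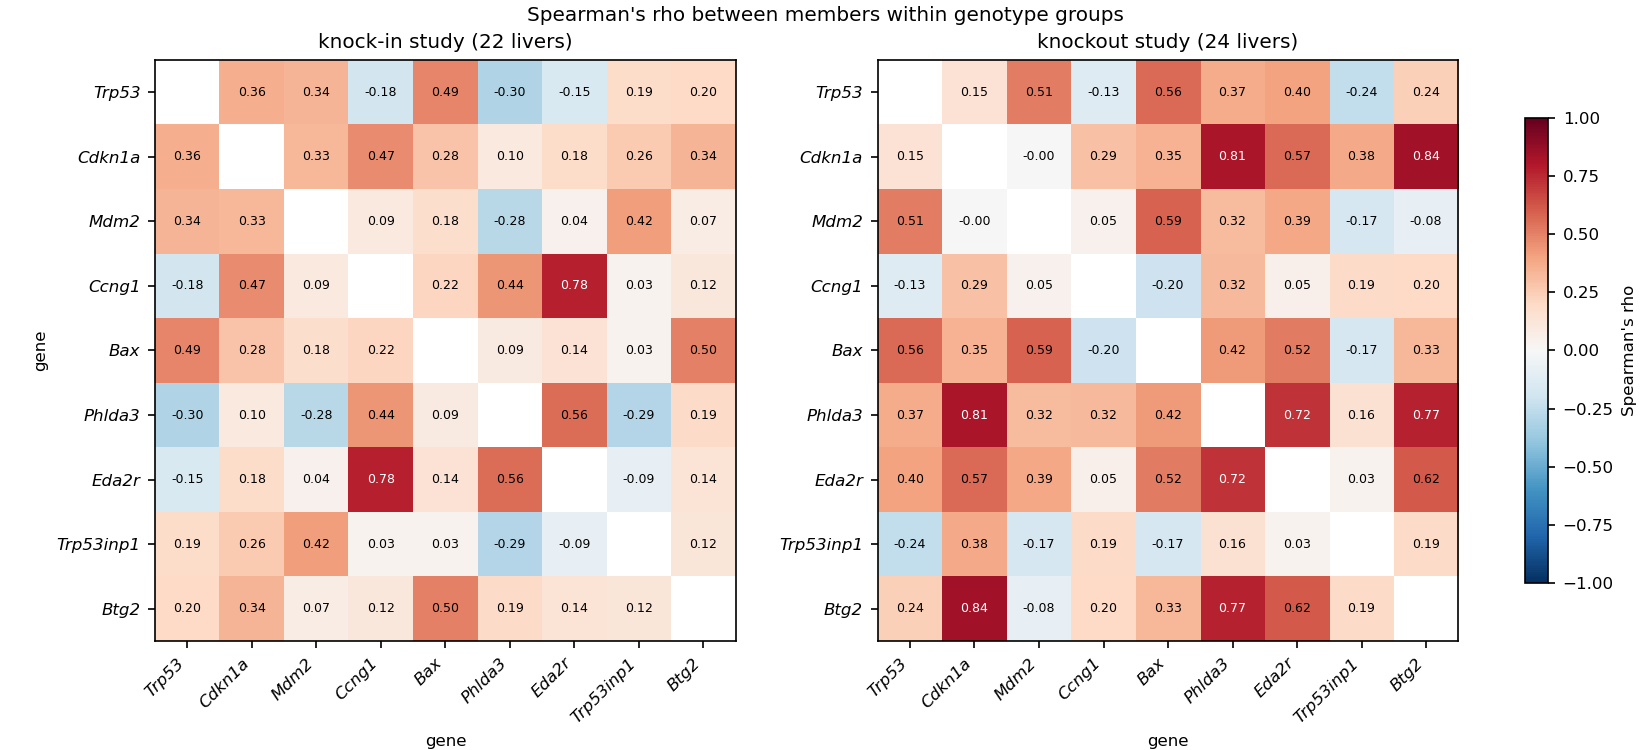
Spearman's rho between each pair of members within genotype groups, in 22 knock-in livers (left) and 24 knockout livers (right), with red for positive and blue for negative values. Cdkn1a, Phlda3, Eda2r and Btg2 form a block of 0.57 to 0.84 in the knockout livers, and 0.10 to 0.56 in the knock-in livers.

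Over the same 46 livers the genes whose variation was most like that of a member were found among 11710 genes with a mean log2 CPM above 1. For Btg2 they included Slc10a2 (rho = 0.81) and Cdkn1a (0.79). For Phlda3 they were S100a11 (0.71), Fkbp1a (0.69) and Mcm6 (0.68), and for Eda2r Fkbp1a (0.73), Robo1 (0.67) and Ccnd1 (0.66). For Bax they were Cfl1 (0.70), Tuba1b (0.70) and Txn1 (0.69), for Trp53 Acin1 (0.70), Stat2 (0.70) and Sugp2 (0.68), and for Ccng1 Kpna4 (0.64), Abcb4 (0.63) and Ralgps2 (0.63). These are ranks out of many genes and carry no test.

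A further 35 genes known as p53 targets were read from a list. All 35 were tested, and in DN:HOM against DN:WT 12 were higher and 9 lower, beside 29.1% and 30% of all genes. Their median log2 difference was -0.003, against -0.01 over all genes. The highest with a mean log2 CPM above 0 were Dram1, a lysosomal membrane protein of autophagy (log2 2.72 ± 0.56, edgeR adjusted p = 6.03e-05), Ckap2, a spindle protein (2.502 ± 0.49, adjusted p = 2.7e-05, and 0.0557 over 48 livers), and Apaf1, the scaffold of the apoptosome (2.21 ± 0.27, adjusted p = 3.54e-09). Tnfrsf10b, a death receptor, and Pmaip1, the BH3-only protein Noxa, followed at 2.07 ± 0.39 and 1.62 ± 0.37. Apaf1 rose from 2.80 ± 0.77 CPM (SD, n = 7) to 12.9 ± 2.9 CPM (SD, n = 7). The lowest were Dcxr, a carbonyl reductase (-1.49 ± 0.14, edgeR adjusted p = 1.29e-12), Sulf2, a sulfatase of heparan sulfate (-1.49 ± 0.23, adjusted p = 5.65e-07), and Gadd45a, a growth arrest protein (-0.99 ± 0.32, adjusted p = 0.00675). Slc19a2 and Ei24 were lower by less, at -0.54 ± 0.13 and -0.40 ± 0.08, and with library size alone Ei24 turned to 0.03. Over 48 livers 8 of the 35 were higher and 8 lower, beside 23% and 25% of all genes, and with library size alone 21 were higher and 2 lower, beside 9283 and 1738 of 15711 genes.

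In KO:HOM against KO:WT, 5 of these 35 were higher and 2 lower, shares near the 11.5% and 7.87% of all genes, with a median log2 difference of 0.12, against -0.02 over all genes. Dram1 was higher again, from 0.68 ± 0.21 to 7.63 ± 4.97 CPM (SD, n = 8 each, log2 3.48 ± 0.56, edgeR adjusted p = 1.83e-05), as were Pmaip1 (1.19 ± 0.36) and Apaf1 (1.02 ± 0.26). Fas, a death receptor, was higher by 0.50 ± 0.11 (edgeR adjusted p = 8.53e-04) and Ephx1, the microsomal epoxide hydrolase, by 0.43 ± 0.13 (adjusted p = 0.015). Over 48 livers the effects in the studies differed for 3 of the 35, all lower in the knock-in, beside 10.5% of all genes. Over 46 livers they differed for 10 of the 35, with 5 higher and 5 lower in the knock-in, beside 16.5% and 18.3% of all genes. Among the 10 were Dcxr (by -1.66, edgeR adjusted p = 1.65e-09), Sulf2 (by -1.68, adjusted p = 4.35e-05), Apaf1 (by 1.19, adjusted p = 0.0109, and 0.623 over 48 livers) and Fas (by -0.52, adjusted p = 0.00901, and 0.331 with library size alone). The difference did not pass for Dram1 (-0.77, edgeR adjusted p = 0.484) or Pmaip1 (0.44, adjusted p = 0.550). With 1 mutant allele, Dram1 (2.58 ± 0.56, adjusted p = 0.0127) and Apaf1 (0.96 ± 0.27, adjusted p = 0.0435) passed in DN:HET by edgeR, and neither did so over 48 livers (adjusted p = 0.184 and 1.0). The call of Dram1 there ended without DN:HET animal 4 or 22 (adjusted p up to 0.0965), and that of Apaf1 without either of these or any of DN:WT animals 5, 7, 13, 17, 21 and 28 (up to 0.286). In the same comparison T cell markers were higher for 6 of 8 genes, at a summed 3.87 to 37.1 CPM in DN:HET against 2.43 to 5.23 in DN:WT, and macrophage markers for 4 of 12, at 229 to 1390 CPM against 212 to 403, beside 2.3% of all genes. Over 48 livers, where 39 of 15621 genes passed, they were higher for 2 of 8 and none of 12. Their part in these calls was not tested. In KO:HET none of the 35 passed, and 1 had an unadjusted p under 0.05.

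**Figure D4:**
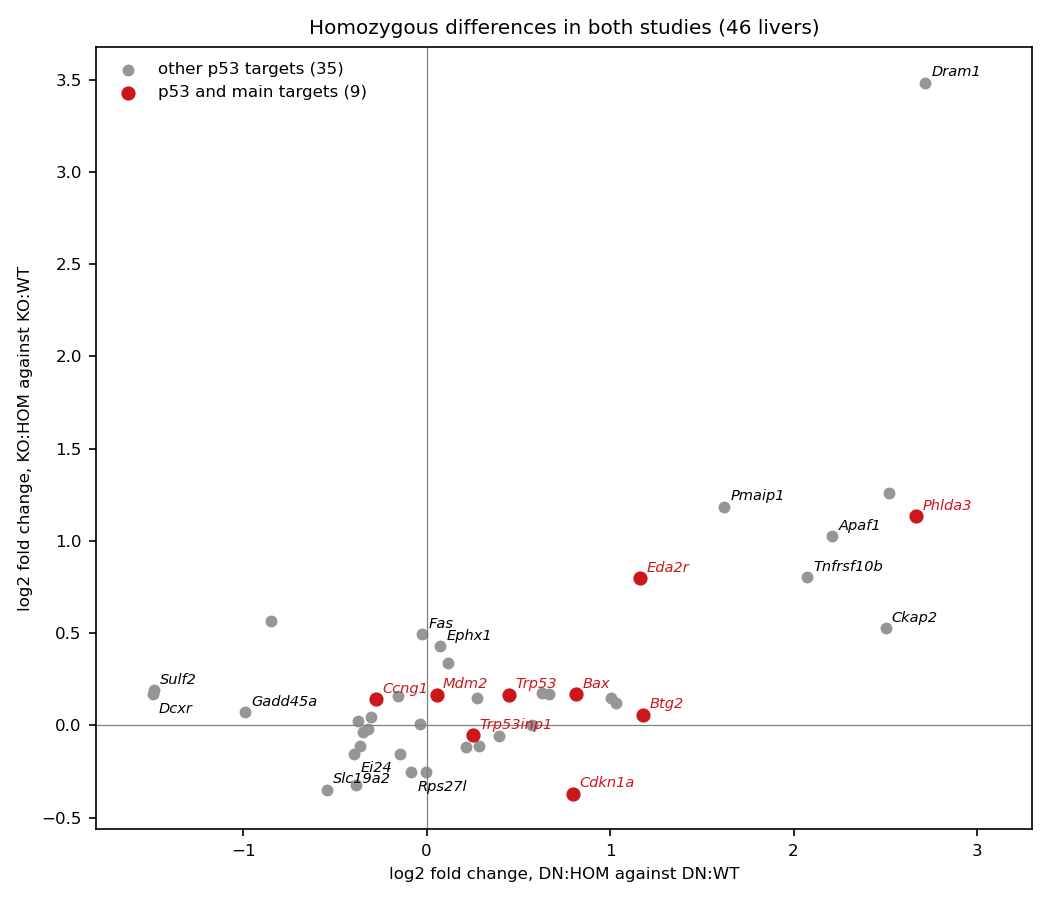
Homozygous difference from wild-type in the knock-in (horizontal axis) and knockout study (vertical axis), as log2 fold change over 46 livers, for the 9 members (red) and 35 other p53 targets (grey, labelled where a gene passed the test in either study with the largest rises and falls). Dram1 lies highest on both axes at 2.72 and 3.48, Phlda3 is the farthest member at 2.67 and 1.13, and Sulf2 and Dcxr lie farthest left at -1.49.

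Of 21 genes that act on p53, 18 were tested, and in DN:HOM 4 were higher and 7 lower, a share near that of all genes (29.1% higher and 30% lower). Chek1, a checkpoint kinase, was higher (1.17 ± 0.39, edgeR adjusted p = 0.0085, and 0.0846 over 48 livers), as was Rpl5, a ribosomal protein that binds Mdm2 and has processed copies that could share its reads (0.44 ± 0.06, adjusted p = 9.73e-08). The kinases of p53 Dyrk2 (-0.74 ± 0.09), Hipk2 (-0.72 ± 0.16) and Prkdc (-0.65 ± 0.13) were lower, and so were Ube4b, a ubiquitin ligase (-0.61 ± 0.09), and Usp7, the deubiquitinase of Mdm2 (-0.29 ± 0.06), which turned to 0.14 with library size alone. In KO:HOM, beside 11.5% and 7.87% of all genes, 2 regulators were higher and 4 lower. Of these Cop1 (-0.25 ± 0.06, edgeR adjusted p = 0.00232) and Rchy1 (-0.22 ± 0.07, adjusted p = 0.0173), ubiquitin ligases of p53, kept their calls whichever single liver was left out. Over 48 livers 1 regulator was higher and 7 lower in DN:HOM, and 1 higher and 3 lower in KO:HOM, and with library size alone 14 were higher and 2 lower in DN:HOM, where that scaling called 9283 of 15711 genes higher and 1738 lower.

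Of 15 listed partners of p21 at the G1 checkpoint 14 were tested, and in DN:HOM 9 were higher, 1 was lower and 4 did not pass, beside 29.1% higher and 30% lower among all genes. Their median log2 difference was 0.46, against -0.01 over all genes. Cdkn2c, an inhibitor of Cdk4 and Cdk6, rose from 3.67 ± 0.58 to 17.9 ± 2.5 CPM (SD, n = 7 each, log2 2.29 ± 0.19, edgeR adjusted p = 1.7e-13). Ccnd1, cyclin D1, rose from 25.5 ± 14.3 to 114.5 ± 18.3 CPM (SD, n = 7 each, log2 2.18 ± 0.35, adjusted p = 7.77e-07), and Ccnd2, cyclin D2, by 1.02 ± 0.15 (adjusted p = 1.22e-07). Cdk6 rose by 0.51 ± 0.11 (adjusted p = 8.3e-05). Rb1 was the 1 lower gene (-0.21 ± 0.09, adjusted p = 0.0415), a call that DESeq2 did not make (adjusted p = 0.074) that ended without DN:WT animal 2 or 28 or DN:HOM animal 9 or 31 (edgeR adjusted p up to 0.126), and that turned to 0.22 with library size alone. In KO:HOM, where 11.5% of all genes were higher, 2 were higher and none lower, Cdkn2c (0.90 ± 0.18, adjusted p = 2.8e-04) and Ccnd2 (0.73 ± 0.14, adjusted p = 1.86e-04), of which Cdkn2c did not pass over 48 livers (adjusted p = 0.0546). Over 48 livers 7 were higher and none lower in DN:HOM (23% and 25% of all genes), and with library size alone 13 were higher and none lower (9283 and 1738 of 15711 genes).

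Of the BCL-2 family and caspases, 14 of 15 were tested, and in DN:HOM 8 were higher and 3 lower, beside 29.1% and 30% of all genes, with a median log2 difference of 0.27 against -0.01 over all genes. Bok, a relative of Bax, rose by 1.49 ± 0.15 (edgeR adjusted p = 1.16e-11), Bcl2l11, the BH3-only protein Bim, by 1.28 ± 0.18 (adjusted p = 7.71e-08), the antiapoptotic Bcl2 by 1.15 ± 0.26 (adjusted p = 2.35e-04) and Bak1 by 0.54 ± 0.15 (adjusted p = 0.0013). Cycs, cytochrome c, fell by 0.54 ± 0.07 (adjusted p = 3.43e-09), Casp9 by 0.39 ± 0.11 (adjusted p = 0.0751 over 48 livers) and Bcl2l2 by 0.36 ± 0.07, and the last 2 turned to 0.04 and 0.07 with library size alone. In KO:HOM 3 were higher and 3 lower, beside 11.5% and 7.87% of all genes. Bak1 was higher there by 0.45 ± 0.14 (adjusted p = 0.0164), and Bcl2l2 and Cycs were lower by 0.25 ± 0.07 and 0.22 ± 0.06, Cycs with an adjusted p of 0.0577 over 48 livers. Over 48 livers 6 of the family were higher and 2 lower in DN:HOM (23% and 25% of all genes), and 1 higher and 2 lower in KO:HOM. With library size alone 10 were higher and none lower in DN:HOM (9283 and 1738 of 15711 genes), and among the genes named from the 4 lists the calls of Gadd45a, Slc19a2, Hipk2, Prkdc and Cycs in DN:HOM and of Cop1, Rchy1, Bcl2l2 and Cycs in KO:HOM ended.

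Markers of proliferation and of other cell types also differed between the groups. Their counts stand beside 29.1% of all genes higher and 30% lower in DN:HOM, and 11.5% and 7.87% in KO:HOM. In bulk liver RNA, more cells of a type and more RNA per cell cannot be told apart. Of 15 proliferation genes 14 were higher in DN:HOM, and their summed level was 113 to 172 CPM there, against 27.6 to 51.8 in DN:WT, 21.6 to 61.8 in KO:WT and 29.9 to 60.4 in KO:HOM, where 2 were higher and 1 lower (none and 1 over 48 livers). Stellate cell markers were higher for 9 of 10 genes in DN:HOM, at a summed 827 to 1140 CPM against 222 to 306 in DN:WT, and for 5 of 10 in KO:HOM, at a median of 381 CPM against 256. Cholangiocyte markers were higher for 6 of 6 in DN:HOM, at 722 to 1070 CPM against 30.3 to 70.7, and for 1 of 6 in KO:HOM. Macrophage markers were higher for 7 and lower for 4 of 12 in DN:HOM, at 923 to 1530 CPM against 212 to 403, and higher for 6 and lower for 3 in KO:HOM. T cell markers were higher for 4 of 8 in DN:HOM, and for 8 of 8 in KO:HOM at 8.37 to 30.9 CPM against 2.45 to 7.79. Of 7 neutrophil genes 5 were tested, and all 5 were higher in DN:HOM, at a summed 30.2 to 81.5 CPM over the 7 against 3.47 to 6.60 in DN:WT, and 3 of 5 in KO:HOM. Ly6g was at 0 in every wild-type and heterozygous liver among the 46. Endothelial markers were lower for 4 and higher for 1 of 7 in DN:HOM. Hepatocyte markers fell for 8 of 10 genes in DN:HOM, to 31200 to 40900 CPM from 61000 to 77500, and for 7 of 10 in KO:HOM. Over 48 livers the genes called higher in DN:HOM were 10 of 15 for proliferation, 8 of 10 for stellate cells, 6 of 6 for cholangiocytes, 6 of 12 for macrophages, 1 of 8 for T cells and 3 of 5 for neutrophils, and 7 of 10 hepatocyte markers were lower. In KO:HOM they were 2 of 10 for stellate cells, none of 6 for cholangiocytes, 5 of 12 for macrophages, 8 of 8 for T cells and 1 of 5 for neutrophils, and 3 of 10 hepatocyte markers were lower. Among 12 immediate early genes 9 were higher and 2 lower in DN:HOM, at 433 to 684 CPM against 302 to 394, and over 48 livers 8 and 1. In KO:HOM 3 were higher and 2 lower, and over 48 livers none and 2. DN:WT animal 10 had 224 CPM of the proliferation genes and DN:HOM animal 12 had 48.1.

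Within genotypes, where the group means are subtracted, Cdkn1a had a median rho of 0.50 with the 12 immediate early genes (10 of them positive), Btg2 one of 0.53 (12 positive) and Phlda3 one of 0.40 (10 positive). Eda2r was at 0.34, Bax at 0.31, Trp53 at 0.24, Mdm2 at 0.16, Trp53inp1 at 0.05 and Ccng1 at 0.05. With the 10 stellate cell markers Phlda3 had a median rho of 0.51, Btg2 of 0.47 and Cdkn1a of 0.43, all 10 positive in each case. The other members ran from 0.09 (Trp53inp1 and Ccng1) over 0.19 (Mdm2) and 0.22 (Trp53) to 0.35 (Bax) and 0.36 (Eda2r). With the 15 proliferation genes the medians were 0.32 for Phlda3, 0.32 for Cdkn1a and 0.34 for Btg2, followed by Eda2r (0.28), Bax (0.27), Mdm2 (0.23), Trp53 (0.16), Ccng1 (0.02) and Trp53inp1 (0.00389). With the 12 macrophage markers the order was another one, with Mdm2 highest at 0.36 (12 positive), Bax at 0.29, Trp53 at 0.23, Eda2r at 0.22, Phlda3 at 0.18, Btg2 at 0.17, Cdkn1a at 0.16, Trp53inp1 at 0.09 and Ccng1 at -0.11. The part of these genes and of tissue make-up in the levels of the members was not tested.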

How the data were processed

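Polyadenylated liver RNA was sequenced as stranded libraries. The authors aligned the reads with STAR 2.5.0a to GRCm39 (Ensembl 104) and deposited raw counts of reads per gene, not normalized, for each of the 48 livers; the sense-strand column was used, and lines that name no gene (24.0% to 35.0% of reads) were left out. The 9 members and all lists were chosen with earlier results of these data known. Genotypes came from the labels, which give 1 mouse per liver. The model held 46 livers and used edgeR 4.0.16 in R 4.3.3 (filterByExpr, TMM, quasi-likelihood F test on 6 group means, Benjamini-Hochberg over 15711 genes, threshold 0.05), with standard errors taken from the fold change and its F statistic. It was tested on simulated data. CPM used TMM factors of all 48 livers, and log2 CPM a prior count of 2. Alternatives were all 48 livers, DESeq2 1.42.0 (the authors' tool), other scalings and filters, unstranded counts, fewer groups and fewer livers. Pathway genes open to naming were, per list and homozygous comparison, the 5 largest rises and 5 largest falls that passed and had an average log2 CPM over 0; calls in the homozygous comparisons that ended with 1 liver left out were not named, except Rb1. Not every gene that met a naming rule is reported here.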

Additional observations from a re-analysis of the deposited data

Results flagged for a closer look

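Single livers stood apart from their groups for 4 of the 54 combinations of member and group, by Dixon's gap test on log2 CPM, which chance alone would flag in about 1 of 20. Mdm2 was at 44.4 CPM in KO:HET animal 9, above the other 7 livers. Ccng1 was at 64.9 CPM in DN:HET animal 1 and at 51.6 CPM in DN:HOM animal 33, each above the rest of its group. Trp53inp1 was at 38.8 CPM in DN:WT animal 17, below the rest.

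The homozygous effect differed between the knock-in and the knockout by the test of the difference itself for 4 members over 46 livers. The log2 difference was 1.54 for Phlda3, 1.12 for Btg2, 0.645 for Bax and -0.419 for Ccng1. Line and breeding site cannot be told apart in these values.

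DN:WT animal 10, outside the 46 livers, had 5.21 CPM of Phlda3, above the highest of the other 7 DN:WT livers (1.73 CPM).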

How the results depend on the processing

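For the 75 results on single genes, pairs and sites, 721 values under other settings counted as the same, 11 no longer passed, 15 newly passed, 24 turned and 1, a correlation, moved. For single genes, the same meant an unchanged direction and side of the threshold. For pairs it meant a rho that moved by less than its standard error, with no test repeated. The site count, 4 members and 3 in the narrower window, was counted as the same without a rule. No paired analysis was possible because the replicate numbers follow accession order and the labels pair no animals. The number of members called in KO:HOM against KO:WT was 1, and became 0 over all 48 livers, 4 with library size alone, and 1 to 2 when single livers were left out. Of all genes 11.5% were higher there, 8.79% over 48 livers, and 2622 of 15711 with library size alone. The number with a different effect in the lines was 4, and 0 over 48 livers.

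Values that turned were, on the log2 scale, 0.151 for Ccng1 in DN:HOM against DN:WT, 0.0721 for Trp53inp1 in KO:HOM against KO:WT and 0.202 for Mdm2 in the difference between lines (library size alone); -0.0972 for Phlda3 and -0.0261 for Btg2 in DN:HET against DN:WT (48 livers); -0.00286 for Ccng1 and -0.0442 for Eda2r in KO:HOM against KO:HET (without the 2 shallow livers); and -0.00889 for Eda2r there (no filter). With single livers left out, the ranges were -0.00154 to 0.0964 for Mdm2 in DN:HOM against DN:WT. In KO:HOM against KO:WT they were -0.958 to 0.031 for Cdkn1a, -0.144 to 0.0459 for Trp53inp1 and -0.0538 to 0.218 for Btg2. In DN:HET against DN:WT the range was -0.00661 to 0.0860 for Mdm2. In KO:HET against KO:WT they were -0.0720 to 0.0242 for Trp53, -0.588 to 0.161 for Cdkn1a, -0.0191 to 0.0722 for Mdm2, -0.0115 to 0.0952 for Bax and -0.115 to 1.25 for Eda2r. In DN:HOM against DN:HET they were -0.0353 to 0.0612 for Mdm2 and -0.0282 to 0.131 for Trp53inp1. In KO:HOM against KO:HET they were -0.711 to 0.221 for Cdkn1a, -0.00387 to 0.0561 for Ccng1 and -0.142 to 0.912 for Eda2r. In the difference between lines the range was -0.0958 to 0.513 for Eda2r. Of these, only Ccng1 in DN:HOM against DN:WT had passed with TMM over 46 livers, and the cause was not tested.

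Low counts limit Phlda3 and Eda2r, which had 1 to 180 reads per liver.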
